A study of Mus musculus with 21 samples.

Results

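The 34 genes described here encode glucose transporters, the enzymes that turn glucose into pyruvate, the kinases and subunits of the pyruvate dehydrogenase complex, and genes of the hypoxia response. They were chosen by name for these roles, with no threshold on a measured value but with earlier results of these data known, and make up 34 of the 25067 mouse genes in the deposited table. Each gene was read from its transcript with the highest mean count. Their levels were measured by RNA sequencing in bone marrow-derived macrophages of C57Bl6/J mice, either wild type (WT) or labelled Nur77 knockout (KO). Nur77, encoded by Nr4a1, is an orphan nuclear receptor that stimulated macrophages induce. Marrow came from male mice 6 to 12 weeks old and was grown for 7 days with 15% L929-conditioned medium, a source of macrophage colony-stimulating factor. The cells of both genotypes then received lipopolysaccharide (LPS, a cell-wall component of Gram-negative bacteria) at 100 ng/ml for 0, 4 or 18 h. Each time held 4 WT and 3 KO libraries, 21 in all. The genotype field of the KO samples reads "cre", and the labels do not state the kind of deletion or the oxygen level.

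Glycolysis converts glucose to pyruvate in the cytosol, and macrophages that meet LPS are known for raising their glycolytic flux. The transcription factor HIF-1, whose regulated subunit is encoded by Hif1a, activates many glycolytic genes, and prolyl hydroxylases (Egln1, Egln3) mark that subunit for destruction while oxygen is present. Pyruvate dehydrogenase kinases switch off the enzyme complex that feeds pyruvate into mitochondria.

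HIF-1 binds a short core, written ACGTG or GCGTG, and 6 upstream windows show how these letters are placed before genes whose levels are given below. Each is the 250 bases before the RefSeq start on build GRCm38.p6, read 5′ to 3′ on the gene's strand, with the core letters in capitals on either strand. Pgk1 (chrX:106186850-106187099, plus strand), Bnip3 (chr7:138909507-138909756, minus strand) and Egln3 (chr12:54203875-54204124, minus strand) are textbook hypoxia-response genes. Slc2a1 (chr4:119108495-119108744, plus strand) and Hk2 (chr6:82774455-82774704, minus strand) differed between the genotypes in opposite directions at 18 h. Tpi1 (chr6:124814159-124814408, minus strand) has none of these letters in its window.
Pgk1: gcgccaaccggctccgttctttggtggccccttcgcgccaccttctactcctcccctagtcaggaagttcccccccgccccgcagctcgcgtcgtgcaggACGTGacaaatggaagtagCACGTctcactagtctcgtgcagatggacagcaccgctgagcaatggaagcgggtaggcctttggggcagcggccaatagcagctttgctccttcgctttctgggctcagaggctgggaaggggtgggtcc
Bnip3: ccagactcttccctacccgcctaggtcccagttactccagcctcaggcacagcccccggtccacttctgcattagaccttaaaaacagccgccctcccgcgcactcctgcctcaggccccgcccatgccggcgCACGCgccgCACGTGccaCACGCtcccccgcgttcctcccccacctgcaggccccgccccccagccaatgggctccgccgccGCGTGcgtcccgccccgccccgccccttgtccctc
Egln3: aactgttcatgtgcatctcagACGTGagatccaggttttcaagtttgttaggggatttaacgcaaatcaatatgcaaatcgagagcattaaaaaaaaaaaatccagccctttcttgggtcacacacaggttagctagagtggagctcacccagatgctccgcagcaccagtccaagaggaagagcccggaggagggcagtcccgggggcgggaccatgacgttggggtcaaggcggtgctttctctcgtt
Slc2a1: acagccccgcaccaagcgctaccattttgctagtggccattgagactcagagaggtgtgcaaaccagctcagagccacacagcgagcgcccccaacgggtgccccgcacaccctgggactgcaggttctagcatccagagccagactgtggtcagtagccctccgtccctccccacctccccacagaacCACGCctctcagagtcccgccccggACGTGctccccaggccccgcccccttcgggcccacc
Hk2: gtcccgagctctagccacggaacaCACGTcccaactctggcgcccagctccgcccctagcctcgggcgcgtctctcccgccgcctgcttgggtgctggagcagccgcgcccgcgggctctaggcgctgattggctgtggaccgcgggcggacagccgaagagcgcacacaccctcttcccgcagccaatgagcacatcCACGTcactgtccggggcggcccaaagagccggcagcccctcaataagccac
Tpi1: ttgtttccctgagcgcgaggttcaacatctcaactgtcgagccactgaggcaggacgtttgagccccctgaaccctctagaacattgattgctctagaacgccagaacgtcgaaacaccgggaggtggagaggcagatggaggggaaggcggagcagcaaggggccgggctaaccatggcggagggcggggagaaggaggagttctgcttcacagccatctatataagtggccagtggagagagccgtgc
The Pgk1 window holds 2 matches, whose first bases lie 150 and 131 bases before the start. The Bnip3 window holds 5 matches, 2 of which overlap because CACGTG reads ACGTG on both strands and is counted on each. The Egln3 window holds 1 match, 229 bases before the start, and those of Slc2a1 and Hk2 hold 2 each.

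Of the 34 genes, 33 had at least 1 window in the RefSeq table, 47 windows in all. ACGTG or GCGTG stood in a window of 29 genes (87.9%), against 6064 of 9984 tested genes with a window (60.7%) and 11226 of all 27025 genes (41.5%). Counted per window the share was 76.6% for the 34 genes, 55.1% for the tested genes and 38.6% for all, since a gene with several starts has several chances. ACGTG alone stood before 57.6% of the 33 genes and before 25.1% of the tested genes. The windows were also rich in G and C, with a median of 61.6% against 59.6% in tested genes and 52.4% in all genes. Eno2, Tpi1, Gpi1 and Dlat had no match in any window. A match is a string of letters in a window, and binding was not measured.

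Counts summed over named genes, with 1 transcript per gene, ranged from 12301504 to 29650081 per library. Of these genes 12529, all 34 among them, had enough counts to be tested. Levels are given as CPM (counts scaled to library size) after TMM scaling, which sets libraries to a common scale on the assumption that most genes do not change. Fold changes and p-values come from edgeR (quasi-likelihood F-test), adjusted by Benjamini-Hochberg over all 12529 genes, and "called" means an adjusted p under 0.05. The TMM factors moved with time, from 1.40 to 1.47 at 0 h to between 0.699 and 0.762 at 4 h. Without them the median fold change of all genes in WT from 0 to 4 h became -1.15 on the log2 scale, so directions are stated with the scaling in view. Labels do not say whether replicate numbers are separate mice, so p-values measure the spread between libraries only. Nr4a1 itself was counted in both genotypes. Its level was 14.7 ± 1.27 CPM in WT (SD, n = 4) and 12.3 ± 0.114 in KO (SD, n = 3) at 0 h, 3.11 ± 2.78 and 0.871 ± 0.34 at 4 h, and 1.10 ± 0.159 and 2.85 ± 0.698 at 18 h. The 18 h order goes against the label, and every genotype direction below is that of libraries labelled KO against libraries labelled WT. The labels do not say whether the counted Nr4a1 transcript covers the altered part of the gene.

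Marker genes of macrophages were high everywhere, with 9 genes summing to between 13548 and 25557 CPM, while 5 erythroid genes summed to at most 0.197 CPM and 7 lymphocyte genes to at most 0.996 CPM. Single macrophage markers differed, with 3 of the 9 called higher in KO at 18 h and 2 lower. At that time Adgre1 held 3696 to 4124 CPM in WT and 2378 to 2819 in KO, and Csf1r 683 to 782 and 565 to 591. Cd68 held 739.8 to 877 CPM in WT and 988 to 1179 in KO. Markers of stromal cells differed between libraries. Their 18 genes summed to 31.1 to 104 CPM in WT at 18 h and to 79.0, 332 and 1264 CPM in the 3 KO libraries. Of the 16 tested, 14 were called higher in KO at that time. At 0 h the 18 genes summed to 56.2, 284, 25.2 and 17.6 CPM in WT and to 221, 309.7 and 447 CPM in KO. Only WT replicate 2 reached the KO range. At 4 h the sums were 47.8 to 162 CPM in WT and 107 to 915 CPM in KO. None of the 16 tested was called between genotypes at 0 or 4 h. Neutrophil markers summed to 35.1 to 53.2 CPM in WT and 84.3 to 142 CPM in KO at 0 h. At 18 h they summed to 197 to 282 and 336 to 478 CPM. Of the 9 tested, 6 were called higher in KO at 0 h and 6 at 18 h. At 4 h the sums were 110 to 163 and 160.5 to 216 CPM, and none of the 9 was called. Mpo and Prtn3 had no counts at 18 h in either genotype. Markers of dividing cells summed to 202 to 292 CPM in WT and to 86.9 to 101 CPM in KO at 0 h. Of the 14 tested, 12 were called lower in KO at 0 h, 6 at 4 h and 3 at 18 h, where 1 was called higher. The part of macrophage, neutrophil and dividing-cell markers in the results below was not tested. In bulk RNA, fewer cells of a type and less RNA per cell cannot be told apart.

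Most of the 34 genes were called between times in both genotypes, as were most of all tested genes. In WT from 0 to 4 h, 19 were called higher and 10 lower, together 85.3% of the set, where 78.1% of all tested genes were called (35.1% higher, 43.0% lower). From 0 to 18 h 22 were called higher and 8 lower, 88.2% of the set, against 71.1% of all tested genes (34.8% higher, 36.3% lower). From 4 to 18 h 17 rose and 11 fell, 82.4%, against 71.7% (37.2% higher, 34.5% lower). The median log2 fold change of the set was 0.28, 1.16 and 0.43 in these comparisons, and that of all tested genes -0.17, -0.05 and 0.06. In KO 15 were called higher and 10 lower from 0 to 4 h, 73.5% of the set, a share no larger than the 75.0% of all tested genes (33.5% higher, 41.5% lower). From 0 to 18 h the KO counts were 20 and 9, 85.3% of the set against 73.0% (34.5% higher, 38.5% lower). They were 21 and 8 from 4 to 18 h, 85.3% against 65.4% (33.3% higher, 32.1% lower).

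The split from 0 to 4 h depended on the scaling. With library totals alone it was 11 higher and 20 lower in WT and 10 and 20 in KO, and with upper-quartile factors 15 and 14 in WT and 13 and 13 in KO. Library totals also gave 18 and 11 in WT and 16 and 13 in KO from 0 to 18 h, and 22 and 5 in WT from 4 to 18 h. Under TMM, median-of-ratios, upper-quartile and totals-only scaling alike, 11 genes were called higher in WT: Slc2a1, Slc2a6, Hk1, Hk2, Hk3, Pfkl, Pfkp, Pfkfb3, Pgk1, Hif1a and P4ha1. The 9 called lower under all 4 were Slc2a3, Gpi1, Pfkm, Pfkfb4, Pdk1, Pdk2, Pdk4, Vegfa and Ankrd37. By 18 h against 0 h, 18 were called higher and 8 lower in WT under all 4 scalings, and 16 and 9 in KO.

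**Figure D1:**
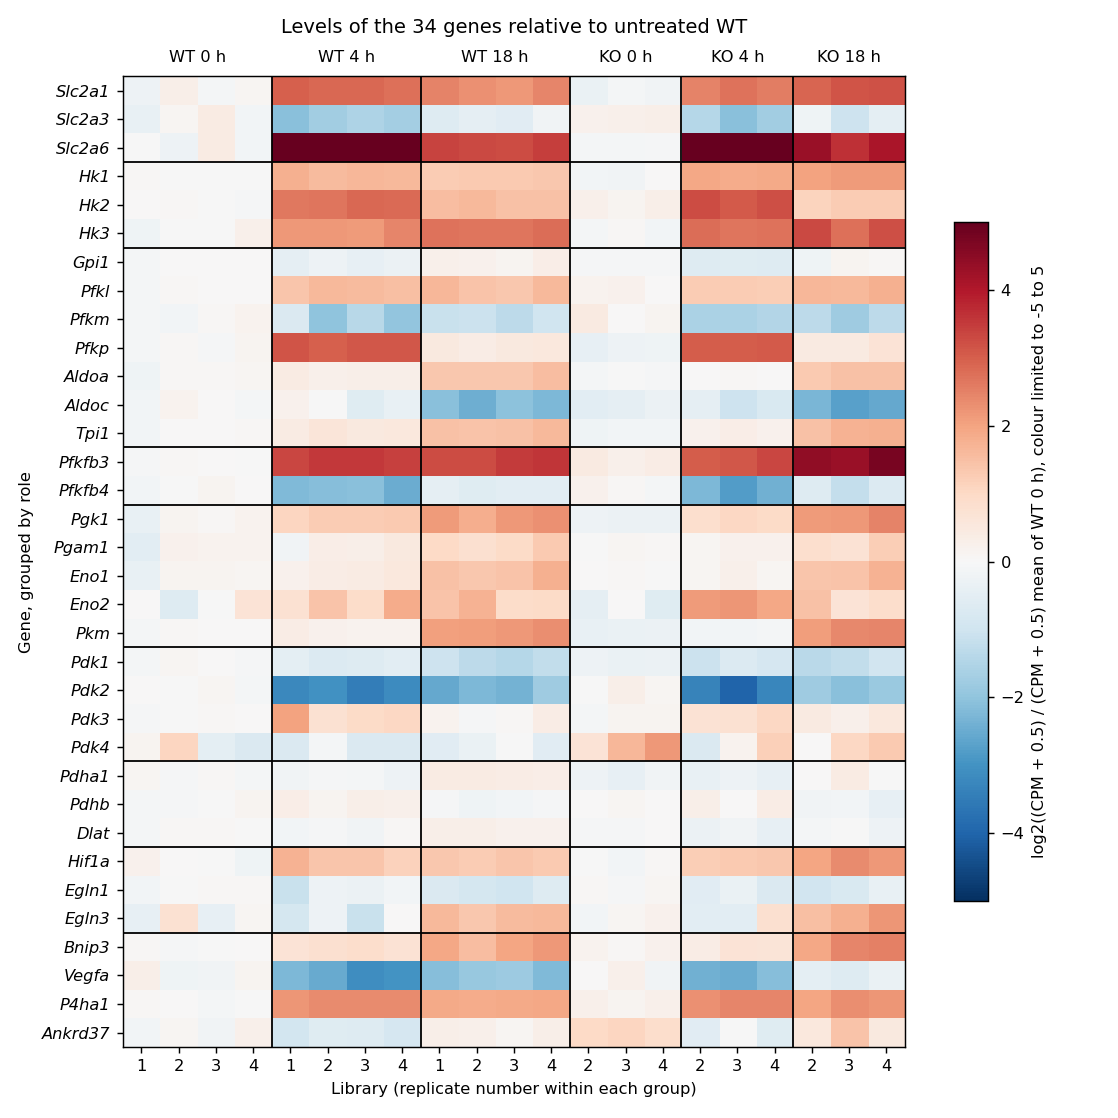
Levels of the 34 genes in each of the 21 libraries, as log2 of (CPM + 0.5) over (WT 0 h mean CPM + 0.5), with rows grouped by role and columns by genotype and hours of LPS, and the colour limited to -5 to 5. Slc2a6, Pfkfb3 and Pfkp were red in every 4 h library and Pdk2, Pfkfb4 and Vegfa blue in every 4 h library, while Pkm and Bnip3 were darkest at 18 h.

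**Figure D2:**
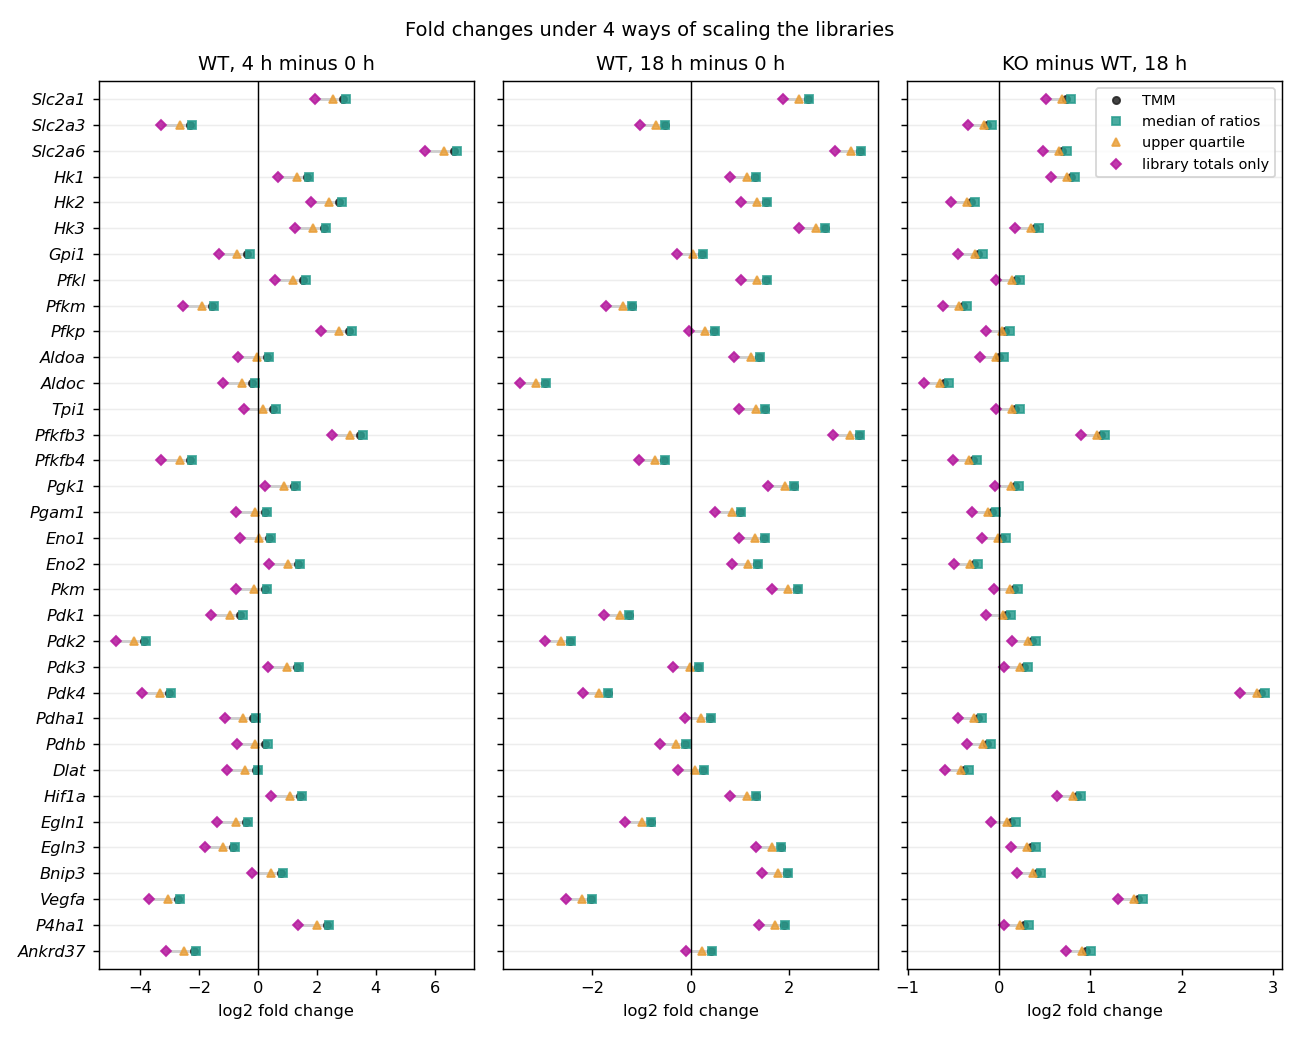
Log2 fold change of each gene under 4 ways of scaling the libraries, for WT at 4 h against 0 h, WT at 18 h against 0 h and KO against WT at 18 h. The points for library totals lie furthest left, and in WT from 0 to 4 h 7 genes, among them Aldoa, Eno1 and Pkm, cross 0.

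The glucose transporters split by member. Slc2a1 encodes GLUT1, the main basal importer of glucose, and lies at chr4:119108745-119137330. Its 4 WT libraries held 12.4, 18.3, 14.1 and 16.0 CPM at 0 h, 124, 113, 113 and 105 at 4 h, and 86.8, 75.9, 69.8 and 84.1 at 18 h. The 3 KO libraries held 11.8, 14.0 and 13.3 CPM at 0 h, 86.5, 100.4 and 90.1 at 4 h, and 117, 137 and 142 at 18 h. WT thus stood highest at 4 h and KO at 18 h, and at 18 h every KO library lay above every WT library. The rise from 0 to 4 h was 7.47-fold in WT (log2 2.90 ± 0.104 SE, edgeR adjusted p = 4.3e-16). From 4 to 18 h the level fell by 0.52 on the log2 scale in WT (adjusted p = 9.1e-05), though with library totals alone by 0.05 with no call, and rose by 0.51 in KO (adjusted p = 0.00058).

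Slc2a6, at chr2:27021363-27028000, encodes GLUT6, an intracellular member of the family, and showed the largest rise of the set at 4 h. WT libraries held 5.14, 4.20, 7.01 and 4.69 CPM at 0 h, 620, 461, 526 and 508 at 4 h, and 58.2, 55.0, 53.7 and 61.6 at 18 h. KO libraries held 4.82, 4.83 and 4.89 CPM, then 646, 629 and 607, then 112, 70.2 and 94.7. Both genotypes peaked at 4 h, and at 18 h the KO libraries lay above the WT libraries. The rise to 4 h was 101-fold in WT (log2 6.66 ± 0.139, adjusted p = 4e-19) and 129-fold in KO. Slc2a3, encoding the high-affinity transporter GLUT3, was scarce and moved the other way, from 2.98, 4.23, 5.34 and 3.56 CPM in WT at 0 h to 0.553, 0.844, 1.01 and 0.851 at 4 h. That fall was 4.97-fold (adjusted p = 2.5e-08), and 5.66-fold in KO.

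Hexokinases trap glucose in the cell by phosphorylating it, and all 3 rose at 4 h in both genotypes under every scaling tried. Hk2, the inducible form that can dock on mitochondria, held 46.0, 47.3, 43.6 and 42.5 CPM in WT at 0 h, 282, 288, 327 and 323 at 4 h, and 131, 138, 123 and 125 at 18 h. KO libraries held 53.7, 49.7 and 55.5 CPM, then 436, 379.8 and 426, then 97.2, 108 and 108. The KO libraries were therefore above all WT libraries at 4 h and below all of them at 18 h. The rise to 4 h was 6.8-fold in WT and 7.81-fold in KO, and the fall from 4 to 18 h was 2.36-fold and 3.97-fold.

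Hk1, the form expressed in most tissues, at chr10:62268855-62379920, held 62.9, 58.5, 58.3 and 58.7 CPM in WT at 0 h, 206, 181, 187 and 183 at 4 h, and 146, 147, 150.2 and 150.4 at 18 h. KO libraries held 53.9, 53.2 and 60.0 CPM, then 227, 219.7 and 222, then 245, 259 and 263. In WT the level stepped back between 4 and 18 h, by 0.35 on the log2 scale (adjusted p = 1.6e-05), a sign that turned to 0.12 with library totals alone. In KO it did not step back and rose by 0.20 (adjusted p = 0.014). Hk3, the form found mainly in blood and myeloid cells, rose 4.67-fold to 4 h and 6.6-fold to 18 h in WT. In KO its rises were 6.94-fold and 9.02-fold, to 1029.7, 698 and 965 CPM at 18 h, where WT held 678, 663, 668 and 727.

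The hexokinase mix was read within each library, as shares per counted transcript length over the sum of Hk1, Hk2 and Hk3. Hk3 made up 59.2% ± 3.8 of the sum in WT at 0 h (SD, n = 4), 60.0% ± 2.29 at 4 h and 78.5% ± 0.85 at 18 h. Hk2 made up 15.1% ± 1.53, 22.2% ± 1.46 and 8.67% ± 0.638 at these times. Its share at 18 h was 5.39% ± 1.08 in KO (n = 3), and the highest KO library, 6.57%, lay under the lowest WT library, 7.97%. In the exact two-sided permutation tests, 42 in all over both enzyme families, the smallest adjusted p was 0.11, since 3 libraries against 4 cannot give a p under 0.0571 and 4 against 4 none under 0.0286. These levels rest on the transcript chosen to stand for each gene. With transcripts summed the Hk2 share in WT at 0 h was 5.07%. That sum takes in 4 Hk3 transcripts, 2 of Hk1 and 1 of Hk2. As transcripts of a gene carry nearly the same reads, it counts Hk3 reads repeatedly.

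Phosphofructokinase commits sugar to glycolysis, and its 3 forms went different ways. The platelet form Pfkp held 31.7, 35.2, 32.2 and 37.1 CPM in WT at 0 h, 306, 273, 296 and 296 at 4 h, and 48.2, 44.3, 47.8 and 49.8 at 18 h. It was a transient, rising 8.61-fold and then falling 6.17-fold, and KO followed with 10.1-fold and 5.64-fold. The liver form Pfkl held 86.9, 102, 98.2 and 94.0 CPM in WT at 4 h and 80.7, 80.6 and 78.4 in KO, and 104, 89.5, 83.1 and 103 against 105, 103 and 115 at 18 h. It rose 2.91-fold to 4 h in WT and was 2.90-fold over 0 h at 18 h, with no call between 4 and 18 h (adjusted p = 0.95). The muscle form Pfkm fell 2.95-fold to 4 h in WT (adjusted p = 2.2e-06). As shares of the 3, Pfkp went from 40.8% ± 1.17 in WT at 0 h to 72.6% ± 1.91 at 4 h and 30.1% ± 2.0 at 18 h, and Pfkl from 43.7% ± 1.42 to 26.3% ± 2.34 and 66.4% ± 1.92 (SD, n = 4). In KO Pfkp went from 33.4% ± 2.91 to 75.2% ± 0.495 and 28.7% ± 0.759 (SD, n = 3).

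**Figure D3:**
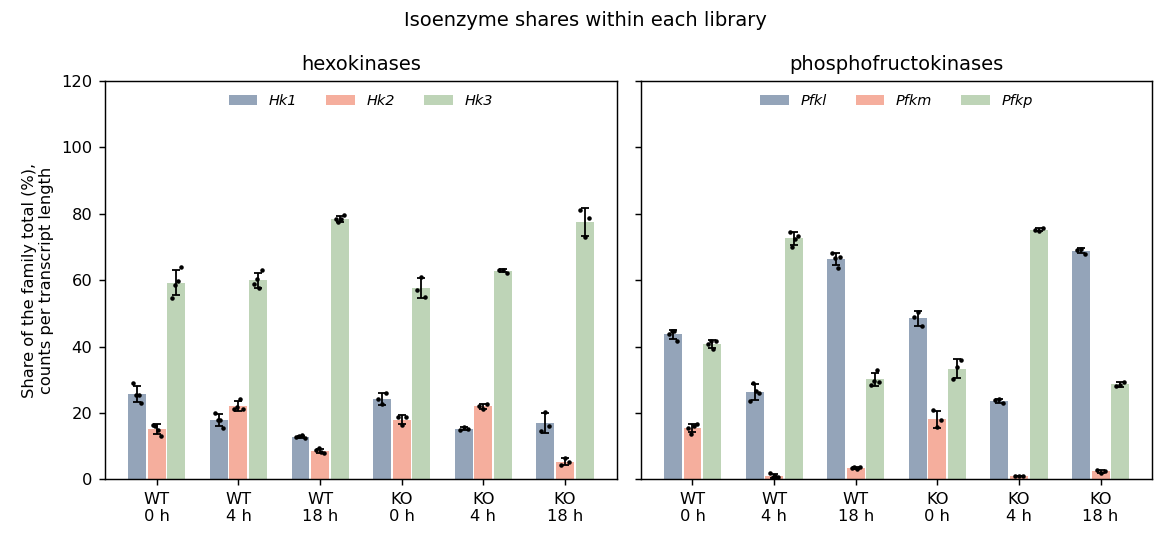
Share of each isoenzyme in the summed hexokinases (left) and phosphofructokinases (right), in percent of counts per transcript length, with bars for the mean, error bars for the SD and dots for the libraries. Pfkp led the phosphofructokinases at 4 h in both genotypes and Pfkl at 18 h, and Hk3 led the hexokinases in every group.

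Pfkfb3 and Pfkfb4 make and remove fructose 2,6-bisphosphate, the strongest activator of phosphofructokinase, and their mRNAs moved in opposite directions. Pfkfb3, at chr2:11471430-11554071 and the form with the highest kinase activity, held 37.8, 40.2, 39.8 and 38.3 CPM in WT at 0 h, 405, 456, 456 and 423 at 4 h, and 378, 375, 445 and 468 at 18 h. KO libraries held 54.0, 46.7 and 50.5 CPM, then 326, 338 and 403, then 855, 788 and 1059. WT reached its level by 4 h and kept it, while every KO library at 18 h lay well over all others. The rise from 0 to 4 h was 11.1-fold in WT and 7.06-fold in KO. From 4 to 18 h the WT change was not called (log2 -0.06, adjusted p = 0.57; 0.40 with library totals alone), whereas KO rose 2.53-fold (adjusted p = 9.5e-10). Pfkfb4 fell 4.91-fold to 4 h in WT and 6.14-fold in KO, and by 18 h had come back 3.37-fold and 3.28-fold.

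Of the remaining enzymes of the upper pathway, Aldoa and Tpi1 rose late. Aldoa, the main aldolase, held 334, 405, 404 and 419 CPM in WT at 0 h, 519, 465, 480.3 and 475 at 4 h, and 995, 986, 999.5 and 1134 at 18 h. It was 2.63-fold over 0 h at 18 h, while its 4 h value (log2 0.31) turned to -0.031 with upper-quartile factors and -0.67 with library totals. Tpi1, which interconverts the triose phosphates, held 376, 364, 373 and 422 CPM in WT at 18 h and 377, 455 and 472 in KO. It was 2.83-fold over 0 h at 18 h in WT and 3.56-fold in KO. Gpi1, which makes fructose 6-phosphate, held 243, 241, 224 and 258 CPM in WT at 18 h and 179, 226 and 215 in KO, ranges that overlap by 1 library. It dipped 1.28-fold at 4 h in WT and 1.48-fold in KO and then rose 1.50-fold and 1.55-fold from 4 to 18 h. Aldoc, a minor aldolase here, fell 7.79-fold from 0 to 18 h in WT and 8.51-fold in KO.

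The 5 genes of the lower pathway were all called higher at 18 h than at 0 h in both genotypes, but not all by the same course. Pkm, encoding the muscle pyruvate kinase, held 467, 513, 509.9 and 508 CPM in WT at 0 h, 642, 573, 564 and 557 at 4 h, and 2054, 2141, 2273 and 2480.4 at 18 h. KO libraries held 389, 395 and 410.1 CPM, then 449, 451 and 461, then 2134, 2631 and 2748. The step from 0 to 18 h was 4.48-fold in WT (adjusted p = 2.6e-15) and 6.29-fold in KO. Pgk1, the first ATP-making enzyme, was 2.33-fold higher at 4 h and 4.26-fold at 18 h in WT, and 2.36-fold and 5.89-fold in KO. Eno1, the common enolase, was 2.81-fold and Pgam1, the phosphoglycerate mutase, 2.02-fold over 0 h at 18 h in WT. In KO the values were 2.86-fold and 1.87-fold, where Pgam1 was no longer called with library totals alone (log2 0.18). Eno2, the neuronal enolase, was low. WT libraries held 3.99, 2.35, 3.90 and 6.66 CPM at 0 h, 7.01, 11.6, 7.95 and 15.7 at 4 h, and 11.7, 14.3, 7.88 and 8.16 at 18 h. KO libraries held 2.75, 4.04 and 2.44 CPM, then 19.2, 20.4 and 16.4, then 11.9, 6.74 and 7.68. In WT the 4 h and 18 h ranges overlapped, and in KO every 4 h library lay above every 18 h library. Eno2 was 2.56-fold higher at 4 h in WT, a call lost with library totals alone (log2 0.39, adjusted p = 0.23). In KO it fell by 1.09 on the log2 scale from 4 to 18 h (adjusted p = 0.0063), and its 18 h call over 0 h was lost with library totals alone (log2 0.80, adjusted p = 0.056). Aldoa, Pgk1, Pgam1, Eno1 and Pkm have processed copies elsewhere in the genome, and the labels do not say how reads that fit several places were counted, so their levels are uncertain. Gapdh, which has many such copies and is no member, held only 10 to 573 counts per library. Nothing is concluded from its level, though it is counted among the further glycolysis genes below, where its 18 h level is given.

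At the entry to mitochondria, 3 of the 4 pyruvate dehydrogenase kinases were called lower at 4 h in WT and 1 was called higher. Pdk2 held 11.3, 10.9, 11.8 and 10.4 CPM in WT at 0 h and 0.738, 0.937, 0.548 and 0.806 at 4 h, a fall of 14.5-fold (adjusted p = 2e-13), and 22.1-fold in KO. Pdk1, a known hypoxia-response gene, fell 1.51-fold to 4 h and 2.4-fold to 18 h in WT, and 1.47-fold and 1.83-fold in KO. Pdk3 was 2.5-fold higher in WT at 4 h (adjusted p = 1.8e-06), but with library totals alone the call ended (log2 0.33) and in KO its sign turned (-0.14). Its WT values at 4 h were 62.4, 26.0, 29.3 and 30.9 CPM, replicate 1 being far above the others. Pdk4 was near the limit of counting, with 3 counts over the 4 WT libraries at 4 h, and no fold is given. Its call in WT (adjusted p = 0.042) was lost in 6 of 16 settings, among them DESeq2 and 5 of the 8 that left out 1 library.

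Subunits of the complex itself moved little. Pdha1, the catalytic alpha subunit, was 1.31-fold higher at 18 h than at 0 h in WT, and Dlat, the acetyltransferase core, 1.20-fold. Both signs turned with library totals alone (log2 -0.12 and -0.25). Pdhb, the beta subunit, was called 1.19-fold higher at 4 h in WT and turned to -0.090 with upper-quartile factors.

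Hif1a, at chr12:73901324-73947554, rose early and held. WT libraries had 205, 179, 170 and 149 CPM at 0 h, 585, 458, 460.3 and 391 at 4 h, and 446, 417, 456 and 433 at 18 h. KO libraries had 172, 157 and 181 CPM, then 407, 428 and 451, then 688, 895 and 789. At 4 h the genotypes overlapped, and at 18 h all KO libraries lay above all WT libraries. The rise to 4 h was 2.7-fold in WT (adjusted p = 1.3e-10) and 2.52-fold in KO. Between 4 and 18 h WT showed no call (log2 -0.11, adjusted p = 0.36; 0.36 with library totals) and KO rose 1.84-fold. Egln1, the main oxygen-sensing hydroxylase, fell 1.76-fold from 0 to 18 h in WT and 1.64-fold in KO. Egln3, a hydroxylase that HIF induces, went from 0.612, 2.06, 0.613 and 1.08 CPM at 0 h to 4.15, 3.29, 4.02 and 4.13 at 18 h in WT, 3.56-fold (adjusted p = 0.00028), and 4.65-fold in KO.

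The other hypoxia-response genes did not share 1 course. P4ha1, a collagen prolyl hydroxylase, held 279, 275, 278 and 286 CPM in WT at 18 h and 293, 375 and 348 in KO. From 0 h it rose 5.03-fold to 4 h in WT and 4.59-fold in KO. Bnip3, a mitochondrial protein of mitophagy, held 73.8, 55.8, 74.6 and 86.3 CPM in WT at 18 h and 73.2, 105 and 111 in KO. It was late, 3.87-fold over 0 h at 18 h in WT and 4.61-fold in KO. Vegfa, at chr17:46016993-46032377, encodes the angiogenic growth factor and fell. Its WT libraries held 152, 107, 111 and 136 CPM at 0 h, 26.2, 21.3, 14.2 and 15.2 at 4 h, and 28.5, 33.7, 35.6 and 26.5 at 18 h. KO libraries held 128, 148 and 109.7 CPM, then 23.3, 22.3 and 28.0, then 88.8, 79.0 and 99.5. Every LPS-treated WT library lay under every untreated one, and in KO the 18 h libraries had come most of the way back. The fall to 4 h was 6.59-fold in WT and 5.21-fold in KO, and the rise from 4 to 18 h 1.62-fold in WT and 3.61-fold in KO. Ankrd37, a small ankyrin-repeat protein, held 0.0615 to 0.187 CPM in WT at 4 h and 0.643 to 0.793 CPM at 18 h.

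**Figure D4:**
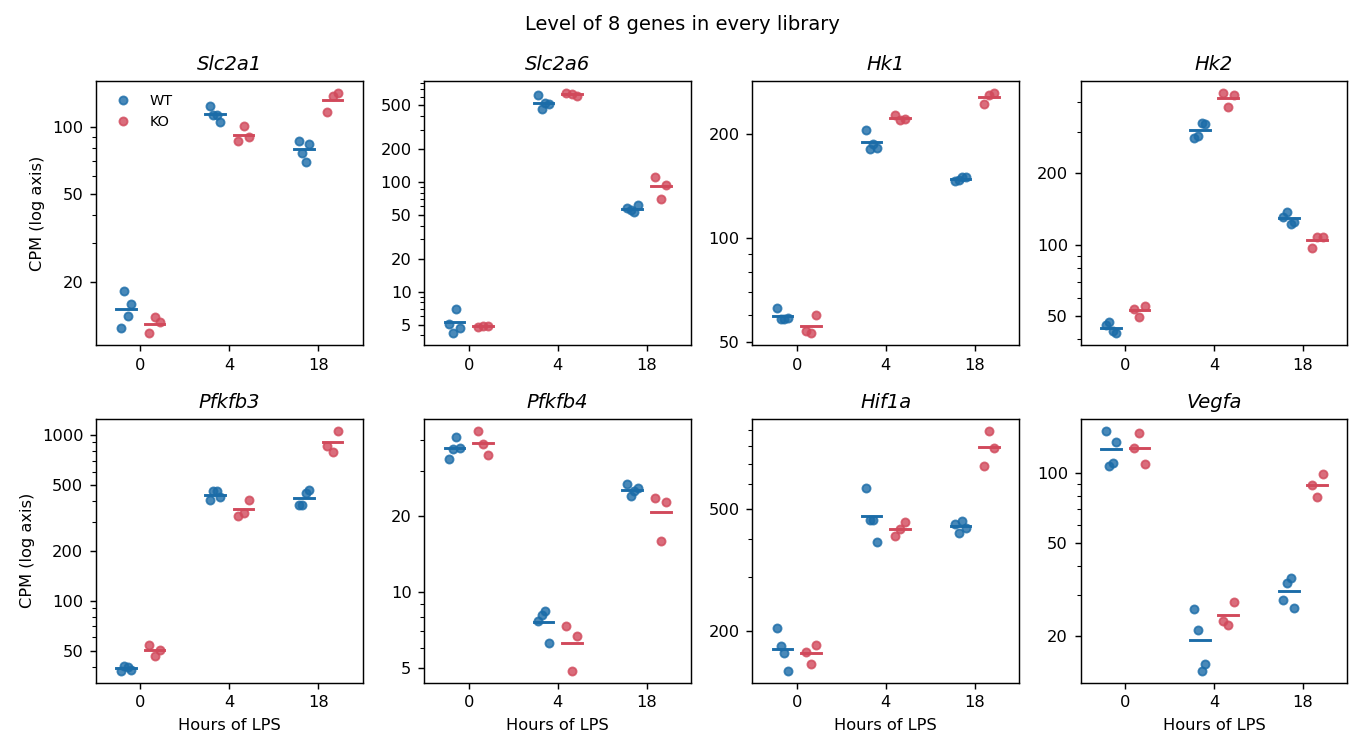
CPM of 8 genes in every library on log axes, by hours of LPS, with dots for libraries (WT blue, KO red) and bars for group means. At 18 h the KO dots of Slc2a1, Slc2a6, Hk1, Pfkfb3, Hif1a and Vegfa lie above all WT dots and those of Hk2 below them.

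Few of the 34 genes differed between genotypes before LPS, when neutrophil and dividing-cell markers already did and stromal sums stood mostly higher in KO. At 0 h, 1 of the 34 genes was called higher and 2 lower in KO, 8.82% of the set, where 3.98% of all tested genes were called (1.11% higher, 2.87% lower). Ankrd37 was the higher gene, at 0.452, 0.615, 0.438 and 0.750 CPM in WT and 1.59, 1.72 and 1.44 in KO (log2 1.49 ± 0.324, adjusted p = 0.0069), and its call was kept in all 16 other settings tried. Pfkp (log2 -0.29 ± 0.0771, adjusted p = 0.032) and Pkm (-0.33 ± 0.0886, adjusted p = 0.04) were called lower. Those calls ended in 7 and 8 of the 16 settings, among them leaving out any of the 3 KO libraries.

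At 4 h, 3 genes were called higher in KO and 3 lower, 17.6% of the set against 5.56% of all tested genes (2.87% higher, 2.7% lower). All 3 hexokinases were the higher ones. Hk2 was 1.36-fold higher (log2 0.44 ± 0.0757, adjusted p = 0.0011), a call kept in all 16 settings. Hk3 held 459.9, 462, 454 and 559.7 CPM in WT and 726, 659.6 and 687 in KO, with every KO library above every WT library (log2 0.51 ± 0.117, adjusted p = 0.012; 0.057 without KO replicate 2). Hk1 was 1.18-fold higher (adjusted p = 0.031), a call that ended in 9 settings. The lower genes were Gpi1 (log2 -0.27, adjusted p = 0.042), Aldoa (-0.28, 0.048) and Pkm (-0.36, 0.02), whose calls ended in 11, 12 and 3 settings. With totals alone, upper-quartile or median-of-ratios factors the split was 3 higher and 1 lower, Pkm being the lower gene.

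At 18 h, 11 genes were called higher in KO and 3 lower, 41.2% of the set against 32.2% of all tested genes (16.6% higher, 15.6% lower). Library totals alone gave 7 and 7, and moved the median of all genes to -0.23, median-of-ratios factors gave 13 and 2, and upper-quartile factors 11 and 4. The median log2 difference of the set was 0.17 and that of all tested genes -0.01. The calls kept in all 16 settings were Slc2a1, Slc2a6, Hk1, Pfkfb3, Hif1a and Vegfa, higher, and Hk2 and Dlat, lower.

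Vegfa showed the largest of these differences, 2.87-fold higher in KO (log2 1.52 ± 0.171, adjusted p = 1.8e-06). Pfkfb3 was 2.16-fold higher (1.11 ± 0.103, adjusted p = 1.5e-07) and Hif1a 1.81-fold (0.85 ± 0.119, adjusted p = 1.9e-05). Hk1 was 1.72-fold (0.78 ± 0.0629, adjusted p = 2.6e-08), Slc2a1 1.67-fold (0.74 ± 0.108, adjusted p = 3.7e-05) and Slc2a6 1.62-fold (0.69 ± 0.137, adjusted p = 0.00063). With the mean of the stromal markers as a covariate all 6 kept their calls. On the lower side, the Hk2 difference was -0.31 ± 0.077 (adjusted p = 0.0044). Dlat held 33.2, 32.4, 30.9 and 31.4 CPM in WT and 25.2, 26.1 and 22.6 in KO, groups apart, a difference of -0.38 ± 0.0787 (adjusted p = 0.0011).

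The other 6 calls at 18 h were less steady. Bnip3 (log2 0.41, adjusted p = 0.016) lost its call in 6 of 16 settings and P4ha1 (0.28, adjusted p = 0.0098) in 3, both with library totals alone, with the stromal covariate and without KO replicate 3. Hk3 (0.39, 0.013) lost its call with library totals and without KO replicate 2 or 4. Gpi1 (-0.23, 0.028) lost its call in 6 settings. Ankrd37 (0.96, 0.038) was lost in 11 of 16 settings and fell to 0.44 without KO replicate 3. Pdk4 held 0.0610, 0.157, 0.322 and 0.0566 CPM in WT and 0.348, 1.23 and 1.56 in KO (adjusted p = 0.044), lost its call in 9 of 15 settings, and with the stromal covariate its difference shrank to 0.09. The KO order of Pdk4 followed that of the stromal marker sums, 79.0, 332 and 1264 CPM in KO replicates 2, 3 and 4. That order is not particular to Pdk4, since Slc2a1, Hk1, Bnip3, Pkm and Tpi1 rose across the KO libraries in the same way. What set the order was not tested. For 6 enzymes of the middle and lower pathway no difference was called at 18 h. On the log2 scale it was 0.00 for Aldoa, 0.03 for Eno1, -0.08 for Pgam1, 0.16 for Pkm, 0.17 for Pgk1 and 0.18 for Tpi1, with standard errors of 0.081 to 0.167.

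**Figure D5:**
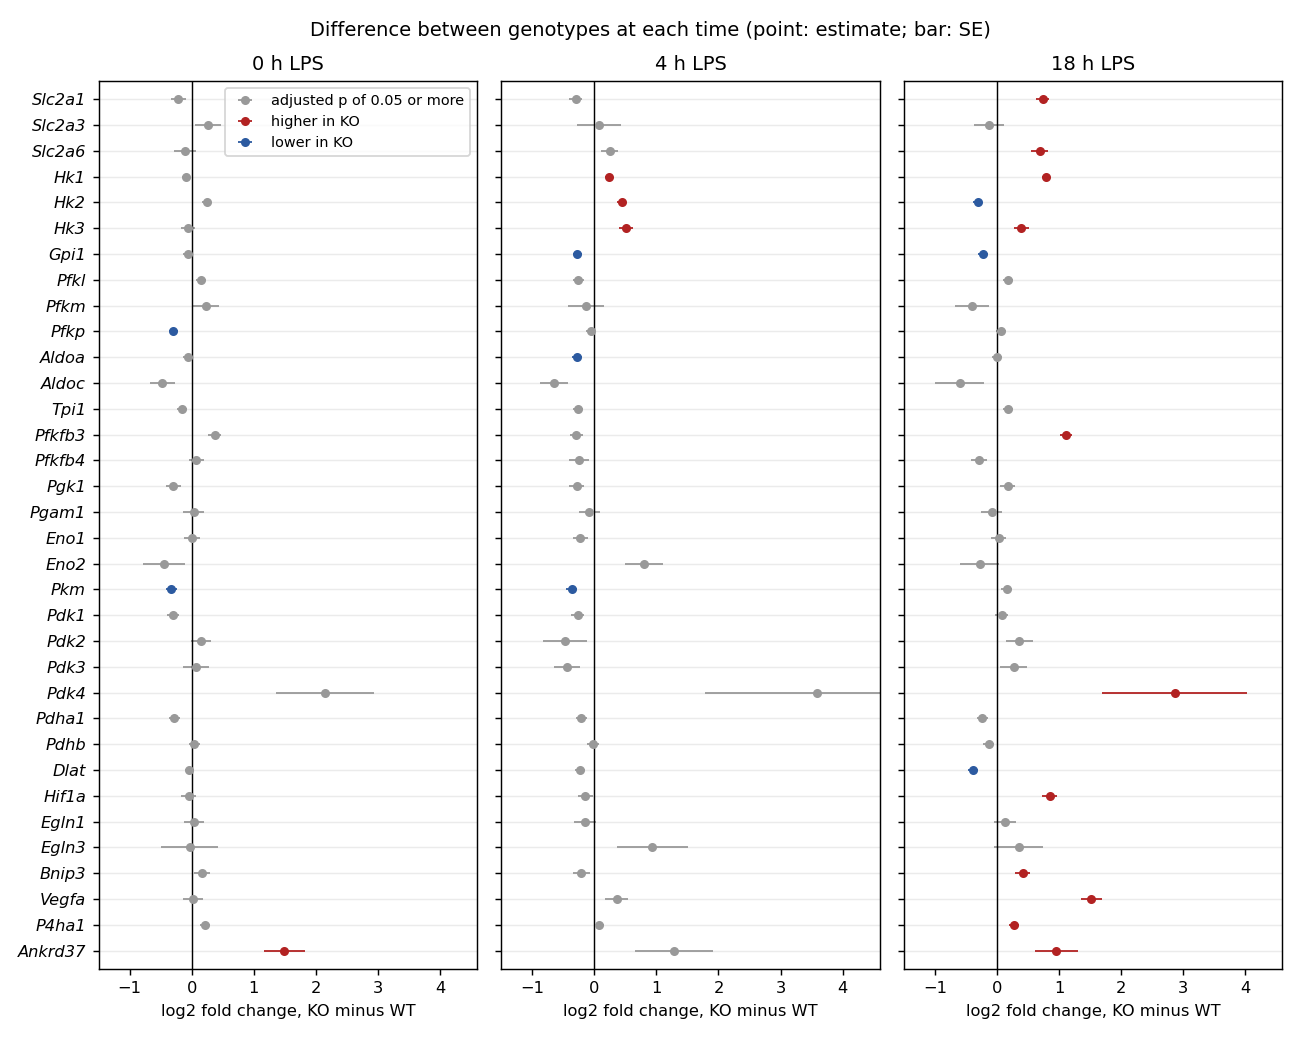
Log2 difference between genotypes, KO minus WT, at 0, 4 and 18 h for the 34 genes, with points for the estimate, bars for its SE and colour for calls; the bar of the thinly counted Pdk4 at 4 h runs past the axis. Called genes numbered 3 at 0 h, 6 at 4 h and 14 at 18 h.

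Whether the response to LPS itself differed was tested as an interaction of genotype and time. From 0 to 4 h 1 gene was called, Pfkfb3, and lower in KO (log2 -0.66 ± 0.148, adjusted p = 0.035), where 0.798% of all tested genes were called (0.599% higher, 0.2% lower). That call ended in 8 of 23 settings, each of which left out 1 library. From 0 to 18 h 8 genes were called higher and 2 lower, against 17.6% of all genes (8.57% higher, 9.0% lower), and with library totals alone 6 and 5 or with median-of-ratios factors 12 and 1. The calls kept in all 23 settings were Vegfa (1.50 ± 0.237, adjusted p = 0.00025), Slc2a1 (0.95 ± 0.161, 0.00045), Hif1a (0.90 ± 0.168, 0.0011), Hk1 (0.88 ± 0.0897, 3.1e-06), Slc2a6 (0.80 ± 0.219, 0.015), Pfkfb3 (0.74 ± 0.148, 0.0018) and Hk2 (-0.55 ± 0.109, 0.0018). Pkm (0.49), higher, lost its call with library totals alone, Pfkp (0.37), higher, lost its call there and in 3 settings that left out 1 library (WT 18 h replicate 2, KO 0 h replicate 2 or KO 18 h replicate 4), and Dlat (-0.34) lost its call in 10 settings. From 4 to 18 h 9 were called higher and 1 lower, against 10.8% (6.26% higher, 4.58% lower), and 5 and 2 with library totals. There Pfkfb3 (1.40), Vegfa (1.16), Slc2a1 (1.04), Hif1a (1.00), Hk1 (0.55) and Hk2 (-0.75) kept their calls in all 23 settings. Pkm (0.53), Tpi1 (0.44) and Pfkl (0.44) were also called higher and lost their calls with library totals alone, the latter pair without KO 18 h replicate 4 as well. Bnip3 (0.62, adjusted p = 0.037) was called higher and lost its call in 11 of 23 settings, 8 of which left out 1 library. The interactions at 18 h share the 18 h libraries with the comparison of genotypes at that time.

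Genes outside the 34 but in the same pathways were counted from lists by role. Of 27 tested HIF target genes that are no members, 13 were called higher and 12 lower in WT from 0 to 4 h, where 35.1% of all tested genes were called higher and 43.0% lower, and 12 and 9 from 0 to 18 h (34.8% and 36.3% of all). With library totals alone these became 6 and 18, and 10 and 13. Between genotypes at 18 h 12 of the 27 were called higher in KO and none lower, where 16.6% of all tested genes were called higher and 15.6% lower, and their median log2 difference was 0.25. That count was 7 higher and 3 lower with library totals alone. It was 5 higher and none lower with the stromal covariate, 5 and none without KO replicate 4, the library with the most stromal signal, and 6 and none without WT replicate 4. The largest differences were those of Plod2, a collagen lysyl hydroxylase (2.52), and Angptl4, a secreted inhibitor of lipoprotein lipase (2.41). Plod2 held 6.03 ± 4.87 CPM in KO (SD, n = 3) and 1.12 ± 0.328 in WT (SD, n = 4). Its difference shrank with the covariate (1.79) and without KO replicate 4, and its call was kept in both. Angptl4 was scarce, at 1.06 ± 1.34 and 0.226 ± 0.109 CPM. Its call (edgeR adjusted p = 0.041) was lost with the covariate (1.78) and without KO replicate 4 (0.53). In the interaction from 0 to 18 h 6 were called higher in KO and none lower, where 8.57% of all tested genes were called higher and 9.0% lower. It was 4 and 3 with library totals alone and 7 and 1 with the stromal covariate. The largest were Mxi1, a repressor of MYC activity (1.71), Hilpda, a lipid-droplet protein (1.32), and Bhlhe40, a basic helix-loop-helix repressor (1.27). Between genotypes at 18 h these genes differed by 1.57, 1.59 and 1.58, and by 1.39, 1.65 and 1.17 with the covariate.

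Of 16 further glycolysis genes tested, 5 were called higher and 7 lower in WT from 0 to 4 h (35.1% and 43.0% of all tested genes), and 2 and 12 with library totals alone. At 18 h 1 was called higher and 6 lower in KO, where 16.6% of all tested genes were called higher and 15.6% lower. Gapdh, thinly counted, was among the 6, at 2.5 ± 0.407 CPM in KO (SD, n = 3) and 11.4 ± 14.1 in WT (SD, n = 4). Its WT libraries at 18 h ranged from 31 to 573 counts. The count of calls was not steady. It was 1 higher and 10 lower with library totals alone, 3 and 4 with median-of-ratios factors, and 0 and 1 with the stromal covariate or without KO replicate 4. It was 2 and 2 without KO replicate 2, KO replicate 3 or WT replicate 4, and 1 and 4 without WT replicate 1 or 2. Slc16a1, which encodes the lactate and pyruvate transporter MCT1, showed a wide gap at 4 h, 46.0 ± 11.1 CPM in WT (SD, n = 4) and 287 ± 20.7 in KO (SD, n = 3), with a log2 difference of 2.64. At 18 h its levels were 4.03 ± 0.767 and 6.71 ± 2.41 CPM. Ldha, lactate dehydrogenase A, went from 213 ± 29.6 to 375 ± 16.8 and 652 ± 71.9 CPM in WT and from 206 ± 3.85 to 324 ± 14.2 and 605 ± 43.3 in KO. Of 11 further regulators of the HIF pathway 2 were called higher and 2 lower in KO at 18 h, of 8 genes of pyruvate oxidation none higher and 1 lower, and of 8 pentose phosphate genes none higher and 2 lower, to be read against the same shares of all tested genes. With library totals alone these counts were 1 and 6, none and 3, and none and 6. For the regulators the lower count was 1 with the stromal covariate and without KO replicate 3 or 4 or WT replicate 1, 2 or 3.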

How the data were processed

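mRNA libraries of 21 samples were analysed: 4 WT and 3 KO at each of 3 times. The authors deposited estimated counts, in steps of 0.5, for 42361 RefSeq transcripts. CASAVA 1.8.2, HISAT2 2.1.0 and build mm10 are named, per the submitters' processing notes, which do not name the counting tool, the strand or the treatment of reads that fit several places. Transcripts were matched to RefSeq symbols on GRCm38.p6 (42203 IDs) or GENCODE (65); 93 without a gene name, 0.232 to 2.23% of counts, were left out. Each gene was represented by its transcript with the highest mean count, since transcripts of a gene carry nearly the same reads (second over first transcript, median 0.9923 over 8193 genes). Estimated counts were rounded to whole numbers. A scheme written for counts was thus applied to rounded estimates.

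Deposited totals ranged from 23478281.5 to 55852932. All 6 groups entered 1 edgeR 4.0.16 quasi-likelihood fit (R 4.3.3, limma 3.58.1) with edgeR's default filter on low counts, TMM factors and no covariate, with 12 contrasts. The fit was run on simulated data in which few genes changed, equally up and down, in WT at 4 h only. Such data cannot test the scaling, since most real genes were called between times. Standard errors come from the fit's information matrix. Alternatives were other factors, no filter, summed transcripts, only the compared groups, the stromal marker mean as covariate, the replicate number as block, DESeq2 1.42.0 and each library left out. Library totals alone and the isoenzyme shares were added after seeing the data. Figures were drawn with matplotlib 3.10.9 under Python 3.11.15.

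The members and lists were chosen with earlier results of these data known. All 34 members were named, in full where called between genotypes or in an interaction, or among the largest LPS changes of their role; of other lists up to 3 called genes of each sign per comparison. Replicate numbers were checked for pairing by the correlation of same-numbered libraries' deviations from their group means. Between WT at 0 and 4 h all 4 exceeded 0.1 (0.23, 0.32, 0.24 and 0.24), and between WT and KO at 0 h none did (-0.30, -0.05 and -0.34). In WT the values were -0.01, -0.09, -0.12 and 0.18 from 0 to 18 h. In KO they were 0.14, 0.02 and 0.2 from 0 to 4 h and 0.4, 0.1 and 0.5 from 4 to 18 h. Libraries of different numbers reached 0.5 as well, as WT 0 h replicate 2 and KO 18 h replicate 4 did.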

Additional observations from a re-analysis of the deposited data

Results flagged for a closer look

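In 11 of 102 WT groups of 4 libraries, 1 library lay far from the other 3, by a criterion under which chance gives about 1 in 20 groups. At 0 h WT replicate 1 was low for Gpi1 (194 CPM, others 209.6 to 211), Pgam1 (44.2, others 72.0 to 73.9), Eno1 (137, others 192 to 194) and Pkm (467, others 508 to 513), and high for Hk1 (62.9, others 58.3 to 58.7). At 4 h WT replicate 1 was high for Pdk3 (62.4, others 26.0 to 30.9) and low for P4ha1 (347, others 387 to 392). WT replicate 4 was high for Hk3 at 4 h (559.7, others 454 to 462) and for Aldoa at 18 h (1134, others 986 to 999.5). WT replicate 2 was alone in having Pdk4 counts at 4 h (0.281 CPM) and low for Egln3 at 18 h (3.29, others 4.02 to 4.15).

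Responses to LPS that differed between genotypes by the edgeR interaction test are given as log2 values, KO minus WT. From 0 to 4 h Pfkfb3 differed by -0.66. From 0 to 18 h the differences were 0.95 for Slc2a1, 0.80 for Slc2a6, 0.88 for Hk1, -0.55 for Hk2, 0.37 for Pfkp, 0.74 for Pfkfb3, 0.49 for Pkm, -0.34 for Dlat, 0.90 for Hif1a and 1.50 for Vegfa. From 4 to 18 h they were 1.04 for Slc2a1, 0.55 for Hk1, -0.75 for Hk2, 0.44 for Pfkl, 0.44 for Tpi1, 1.40 for Pfkfb3, 0.53 for Pkm, 1.00 for Hif1a, 0.62 for Bnip3 and 1.16 for Vegfa.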

How the results depend on the processing

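Signs turned under 2 scalings, and no call on a member turned its sign under the other alternatives run. With upper-quartile factors from 0 to 4 h the log2 change became -0.031 for Aldoa, -0.12 for Pkm and -0.090 for Pdhb in WT and -0.23 for Aldoa in KO. With library totals alone from 0 to 4 h it became -0.67 for Aldoa, -0.46 for Tpi1, -0.74 for Pgam1, -0.61 for Eno1, -0.75 for Pkm, -0.72 for Pdhb and -0.19 for Bnip3 in WT, and -0.86 for Aldoa, -0.55 for Tpi1, -0.84 for Pgam1, -0.82 for Eno1, -0.77 for Pkm, -0.14 for Pdk3, -0.77 for Pdhb and -0.54 for Bnip3 in KO. From 0 to 18 h it became -0.28 for Gpi1, -0.032 for Pfkp, -0.12 for Pdha1 and -0.25 for Dlat in WT, and -0.66 for Gpi1 and -0.29 for Pdha1 in KO. From 4 to 18 h in WT it became 0.12 for Hk1, 0.46 for Pfkl, 0.40 for Pfkfb3, 0.10 for Pdhb, 0.36 for Hif1a, 0.047 for Egln1 and 0.023 for P4ha1. The Aldoa difference between genotypes at 18 h became -0.21. Totals carry no correction for composition.

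Calls among the 34 moved by over 1.5 times in these cases, and the cause was not tested. Between genotypes DESeq2 gave 6 at 0 h, the compared groups alone gave 3 at 4 h, and the stromal covariate gave 9 at 18 h. For the interaction from 0 to 4 h DESeq2 gave 3 and library totals 2. Leaving out 1 library gave 1 to 4 at 0 h, 1 to 6 at 4 h and 0 to 2 for that interaction, while the 11 to 15 at 18 h stayed within 1.5 times. Among all genes, the compared groups alone gave 272 and the stromal covariate 393 at 4 h, the covariate 2533 at 18 h, DESeq2 197 for the interaction from 0 to 4 h, and library totals 3415 and 2355 for those ending at 18 h. Leaving out 1 library gave 314 to 498 at 0 h, 275 to 681 at 4 h and 2674 to 3842 at 18 h, and 62 to 128 and 871 to 1457 for the interactions from 0 to 4 h and from 4 to 18 h. The low 18 h count came without KO replicate 4.

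With a block for replicate number, 3, 7 and 12 of the 34 were called between genotypes at 0, 4 and 18 h, and 1, 13 and 10 in the interactions. Same-numbered libraries correlated at 0.23 to 0.32 between WT at 0 and 4 h, and at 0.4, 0.1 and 0.5 between KO at 4 and 18 h. In both comparisons 29 were called with the block and without it. Equal counts do not settle whether libraries were paired. Leaving out 1 library moved the LPS counts only between 24 and 30.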
